A study of Mus musculus with 9 samples.

Results

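Matrix metalloproteases (MMPs), ADAMs, ADAMTS proteases, ADAMTS-like proteins and the tissue inhibitors of metalloproteases (TIMPs) were followed across the 3 kinds of neurosphere in this series. Members were taken by gene symbol alone, from the platform annotation, without use of any measured value. The rule found 124 probe sets of 70 genes, out of 18194 genes with a value. They comprised 18 MMP, 28 ADAM, 15 ADAMTS, 5 ADAMTS-like and all 4 TIMP genes. A gene with several probe sets was represented by the one with the highest mean over the 9 arrays. A gene was tested when this value reached 5 on the log2 scale on at least 3 arrays, which 30 of the 70 members did.

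The samples were passage 3 neurospheres, cell clusters grown in suspension, from C57BL/6J mouse embryos at embryonic day 12.5, with 3 Affymetrix arrays per group. The rNCSC group came from dorsal root ganglia (DRG, sensory ganglia of neural crest origin) and the SCSC group from spinal cord. Both were cultured without serum in DMEM/F12 that held 20 ng/ml bFGF, 20 ng/ml EGF, heparin, N2 and B27. The BMP NCSC group came from DRG and had 10 ng/ml BMP4 in addition to that medium. No allele or transgene is named for any group. Per the labels, the BMP NCSC spheres hold progenitors of peripheral neurons and glia and mesenchymal stem cells, so this group is a mixture. Whether a group's arrays stem from different litters or cultures is not stated, so the p-values measure the spread between these arrays only.

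These families cut or protect the extracellular matrix and shed proteins from the cell surface. MMPs and ADAMs are zinc proteases made as inactive proforms. Many secreted MMPs are activated outside the cell by other proteases, whereas membrane-type MMPs and ADAMs are activated by furin-like convertases on their way to the surface. ADAMTS proteases are secreted and bind the matrix, where several cut the large aggregating proteoglycans. ADAMTS-like proteins lack the protease domain, and TIMPs block the active site of MMPs and of some ADAMs and ADAMTS enzymes. In the embryo these genes are known from cell migration, cartilage and vessel growth, and the release of growth factors and Notch receptors.

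The labelled identities were checked against marker genes. All 6 CNS progenitor markers had a mean of at least 5 in rNCSC and SCSC and none had in BMP NCSC, where 4 of 5 neural crest and Schwann cell markers and 5 of 9 cartilage markers did. Of the 5 crest and Schwann cell markers, 1 did in rNCSC, S100b (5.88 ± 1.8), and 0 did in SCSC. Sox10 averaged 4.14 in rNCSC, 4.05 in SCSC and 11.56 in BMP NCSC. By these lists rNCSC resembled SCSC more than BMP NCSC, despite the crest name of the group. Foxd3, a defining crest factor, had a mean of 3.70 in BMP NCSC and of 2.97 and 2.93 in rNCSC and SCSC. None of the 7 microglial, 6 endothelial and 4 osteoclast markers had a mean of 5 in any group. Replicate 3 stood apart in both DRG groups. In rNCSC replicate 3, 3.42% of the 10320 genes tested lay more than 1 above or below both other arrays of the group, and in BMP NCSC replicate 3 it was 2.61%, against 0.0581% to 1.52% on the other 7 arrays. The tested members had a median SD of 0.333 in rNCSC, 0.153 in SCSC and 0.308 in BMP NCSC, each above the 0.166, 0.124 and 0.155 of all tested genes.

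DRG spheres grown without BMP4 were first set against those grown with it. Most MMPs, TIMPs and ADAMTS-like genes that could be measured were far lower in rNCSC than in BMP NCSC. ADAM and ADAMTS genes went both ways, with 2 of 8 and 3 of 9 tested called higher and as many called lower. Of the 30 tested members, limma called 16 lower and 6 higher at an adjusted p below 0.05 and a log2 difference of at least 1. This was 53.3% and 20% of them, where 22.6% and 21.3% of all genes tested were called lower and higher. The median difference of the tested members was -1.11, and that of all tested genes 0.07. The filter shaped these counts, since 7 of the members called lower (Adam23, Adamtsl1, Adamtsl4, Mmp3, Mmp11, Mmp14 and Timp1) reached 5 in BMP NCSC alone and had to differ. Likewise Adamts3, Adamts7 and Mmp17 reached 5 only in rNCSC and SCSC. Mmp2 and Adamtsl3 reached 5 in BMP NCSC and, elsewhere, on rNCSC replicate 3 alone. For 25 of the 30 (83.3%) all rNCSC arrays lay on one side of all BMP NCSC arrays, against 79.6% of all tested genes. With no filter, 17 of all 70 members (24.3%) were lower and 6 (8.57%) higher, against 14.4% and 12.6% of all 18194 genes. In this bulk RNA, fewer cells that make a transcript and less of it per cell cannot be told apart.

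**Figure D1:**
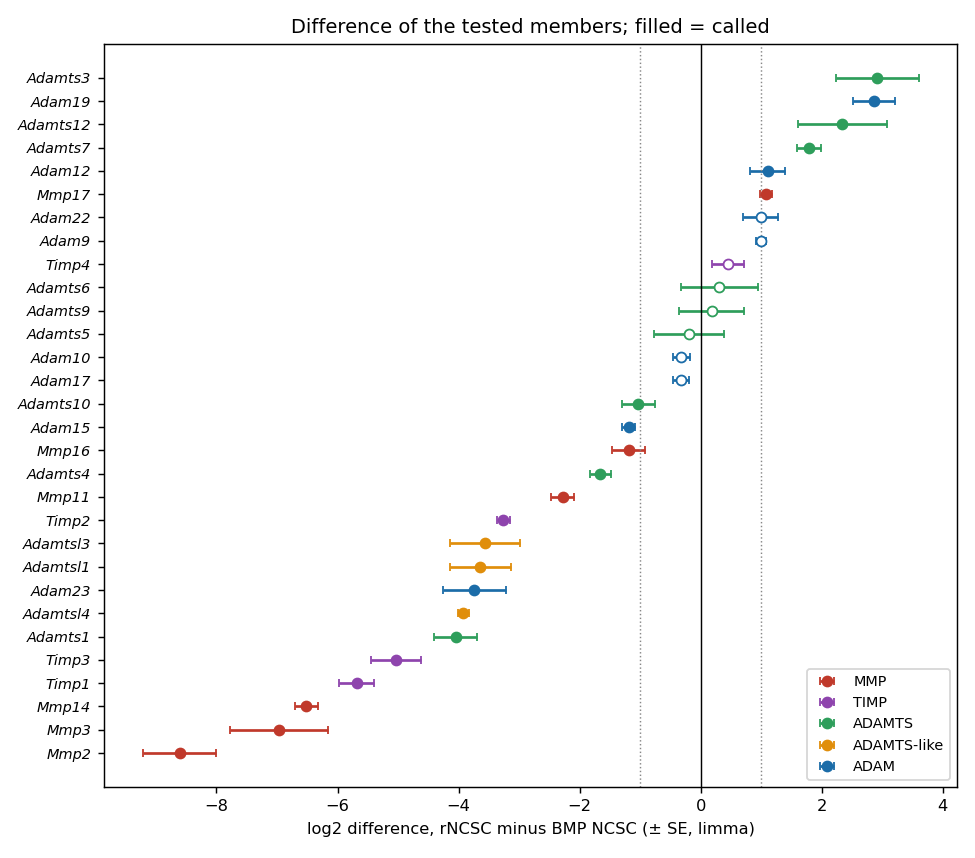
Log2 difference of each of the 30 tested members, rNCSC minus BMP NCSC, with its standard error from limma. Colours give the family, filled points were called, and dotted lines mark a difference of 1 either way. Mmp2 lies farthest left at -8.61 and Adamts3 farthest right at 2.92.

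Of the gelatinases, which cut denatured collagen and basement membrane collagen, Mmp2 had the largest difference of all members. It was at 12.63, 12.55 and 12.60 on the BMP NCSC arrays and at 2.77, 3.53 and 5.65 on the rNCSC arrays. The SCSC arrays were at 3.57, 3.26 and 3.13. The groups did not overlap, and rNCSC replicate 3 was the 1 array outside BMP NCSC that reached 5. The log2 difference was -8.61 (SE 0.61, limma adjusted p = 2.36e-06), and the gene's second tested probe set gave -8.15. The other gelatinase gene, Mmp9, stayed between 2.90 and 3.37 on all 9 arrays.

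Mmp14 encodes the membrane-type protease that, in a complex with TIMP2, activates the Mmp2 proform at the cell surface. Its values were 11.14, 11.24 and 10.94 in BMP NCSC, 4.11, 4.90 and 4.74 in rNCSC and 4.23, 4.24 and 4.34 in SCSC. The BMP NCSC arrays were thus tightly grouped and far above the rest (rNCSC difference -6.52, SE 0.19, limma adjusted p = 1.21e-08). Its 3 probe sets were all called, with differences from -6.52 to -3.64. Mmp16, a related transmembrane protease, averaged 6.20 ± 0.34 (mean ± SD over 3 arrays, as below) in rNCSC against 7.39 ± 0.16 in BMP NCSC. All 4 of its tested probe sets were called lower, and their differences ranged widely, from -3.96 to -1.19. Mmp17, which is tethered by a lipid anchor, was the 1 MMP that was higher in rNCSC, at 5.17 ± 0.10 against 4.08 ± 0.055 (n = 3 each, difference 1.08). Mmp23 and Mmp24, also bound to membranes, stayed under the filter.

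The stromelysin gene Mmp3, whose product cuts many matrix proteins and activates other MMPs, was high in BMP NCSC only. It was at 9.49, 8.41 and 12.33 there, at 3.15, 3.17 and 3.02 in rNCSC and at 3.35, 3.06 and 3.24 in SCSC. Replicate 3 was well above the others, so that the spread within BMP NCSC (SD 2.0) was the largest of any tested member in that group. The difference of -6.96 (SE 0.81, limma adjusted p = 5.73e-05) was nevertheless called, also without replicate 3 of both DRG groups (-5.79, limma adjusted p = 3.18e-06). Mmp11, a stromelysin activated inside the cell by furin, was at 4.03 ± 0.19 in rNCSC against 6.31 ± 0.39 in BMP NCSC (n = 3 each, difference -2.28).

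**Figure D2:**
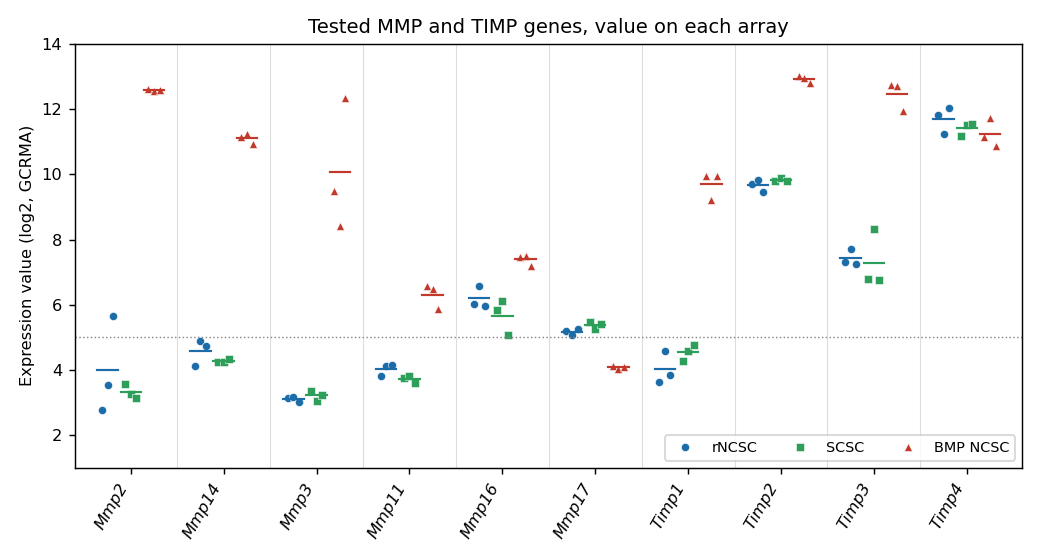
Log2 GCRMA value of the 10 tested MMP and TIMP genes on each of the 9 arrays, 3 points per group, with the group mean as a bar. The dotted line is the filter level of 5. BMP NCSC lies above both other groups for 8 genes, below them for Mmp17, and among them for Timp4.

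Mmp3 belongs to a gene cluster on mouse chromosome 9. In the RefSeq gene table of GRCm38.p6, the 7 members Mmp13, Mmp12, Mmp1b, Mmp3, Mmp1a, Mmp10 and Mmp8 follow each other with no other protein-coding gene between them, and Mmp27, Mmp20 and Mmp7 lie just beyond. Mmp27 has no probe set among the members. Of the other 9 genes, Mmp3 alone passed the filter. Mmp13, a collagenase of cartilage and bone, was at 9.71 on BMP NCSC replicate 3 but at 3.70 and 3.05 on replicates 1 and 2. It was between 1.64 and 1.95 on the 6 rNCSC and SCSC arrays, so even the lower BMP NCSC arrays were above them. With no filter, Mmp13 had a difference of -3.61 (limma adjusted p = 0.0643) and was not called. Mmp10, the stromelysin next to Mmp1a, was at 3.74, 3.80 and 4.25 in BMP NCSC and between 3.55 and 3.75 elsewhere. Mmp1a, Mmp1b, Mmp12, Mmp8, Mmp20 and Mmp7 did not exceed 3.81 on any array.

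**Figure D3:**
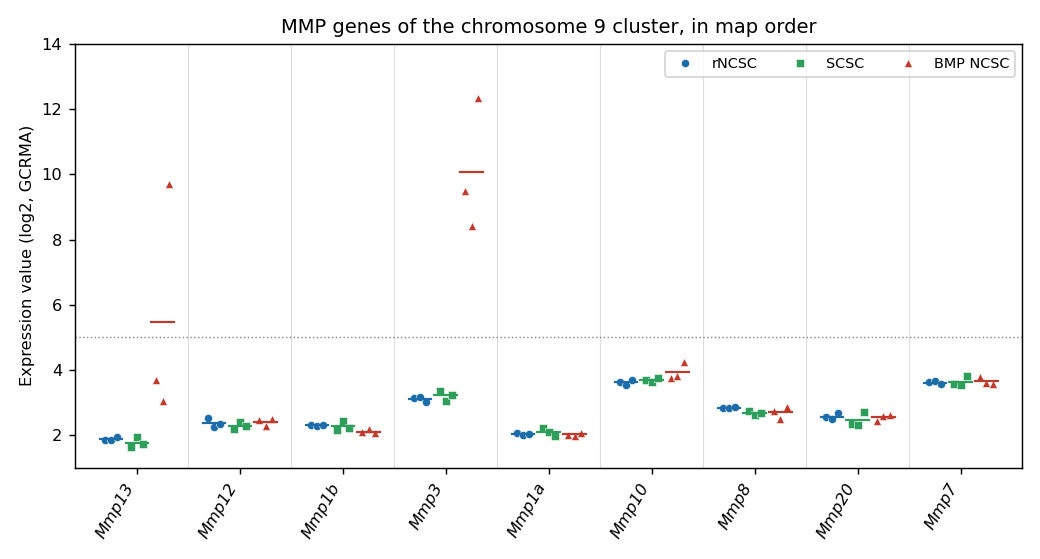
Log2 GCRMA value on each array for the 9 member genes of the chromosome 9 cluster, in their order along the chromosome and without Mmp27, with group means as bars and the filter level of 5 dotted. All BMP NCSC arrays are high for Mmp3 and only replicate 3, at 9.71, for Mmp13.

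Most promoters of this cluster share short motifs. Those of Mmp3 (high on all BMP NCSC arrays) and Mmp13 (high on 1 of them) are shown with those of 2 neighbours that stayed low. The 150 bases before the RefSeq start are given 5′ to 3′ (GRCm38.p6, plus strand). Capitals mark TGACTCA or its reverse complement TGAGTCA, the site of AP-1 (dimers of Fos and Jun proteins), and TATAAA, the TATA box.
Mmp3, chr9:7445672-7445821: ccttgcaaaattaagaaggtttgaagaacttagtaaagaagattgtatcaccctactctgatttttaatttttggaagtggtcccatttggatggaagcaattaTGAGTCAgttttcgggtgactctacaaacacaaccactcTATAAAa
Mmp13, chr9:7272364-7272513: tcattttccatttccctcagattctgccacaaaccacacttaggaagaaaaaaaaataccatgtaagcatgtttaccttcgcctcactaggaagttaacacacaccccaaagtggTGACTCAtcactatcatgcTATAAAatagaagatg
Mmp10, chr9:7502192-7502341: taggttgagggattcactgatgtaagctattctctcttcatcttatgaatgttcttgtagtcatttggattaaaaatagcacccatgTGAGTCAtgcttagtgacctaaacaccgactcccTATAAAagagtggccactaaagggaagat
Mmp1a, chr9:7463991-7464140: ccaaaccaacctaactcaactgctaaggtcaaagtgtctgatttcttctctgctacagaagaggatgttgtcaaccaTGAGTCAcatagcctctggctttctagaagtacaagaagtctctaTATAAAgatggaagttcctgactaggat

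Promoter windows of 300 bases (250 before and 50 after the start) were found for 41 of the 70 members, 46 windows in all. The AP-1 letters, searched on both strands, stood in 5.2% of all 32851 windows, in 19.6% of the members' windows and in 1 of the 11 windows of members lower in rNCSC (9.09%), that of Mmp3. The 9 members with a match were Mmp1a, Mmp1b, Mmp3, Mmp7, Mmp10, Mmp12 and Mmp13 of the cluster, and Adam19 and Adam1b. In the 7 cluster genes a TATAAA followed, 19 bases on in Mmp13 and 34 to 48 bases on in the others. Mmp8 and Mmp20, also of the cluster, had no match for the AP-1 letters. TATAAA, also on both strands, stood in 13.6% of all windows and 28.3% of the members' windows. GGCGCC, a site bound by BMP-regulated SMAD proteins, stood in 11.9% of all windows, in 19.6% of the members' windows and in 1 of the same 11 (9.09%), that of Mmp11. Of the 5 windows of members higher in rNCSC, 1 (20%), that of Adam19, held the AP-1 letters and also GGCGCC. No motif overlapped another within the sequences shown. Mmp1a, Mmp1b, Mmp7, Mmp10 and Mmp12 held both the AP-1 letters and TATAAA and stayed under 5 on every array.

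Of 7 tested genes of AP-1 subunits, 5 were called lower in rNCSC and none higher, where 22.6% of all genes tested were lower. Of those lower, Fosb, Junb and Atf3 reached the filter level of 5 in BMP NCSC alone, which fixed their direction. Jun went the other way, at 11.44 ± 0.28 in rNCSC against 10.72 ± 0.28 in BMP NCSC (n = 3 each). Its difference of 0.72 (limma adjusted p = 0.00533) was under the size limit. Fosl2 was at 4.69 ± 0.53 in rNCSC against 9.91 ± 0.20 in BMP NCSC, and Fos at 7.96 ± 0.73 and 12.58 ± 0.24 (n = 3 each). On BMP NCSC replicates 1, 2 and 3, Fos was at 12.82, 12.59 and 12.34, Junb at 8.32, 7.89 and 8.25 and Fosl2 at 9.86, 9.75 and 10.13. Fosl2 was thus highest on replicate 3, where Mmp3 and Mmp13 were, and Fos lowest. The part of AP-1 in the MMP values was not tested. Mmp19, a secreted MMP encoded outside the cluster, was also highest on replicate 3, at 4.74, 3.98 and 6.10 in BMP NCSC against 2.39 to 2.78 elsewhere. It did not pass the filter and was called lower in rNCSC with no filter (-2.47, limma adjusted p = 0.00107).

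The TIMP genes split 3 to 1. Timp1, which inhibits most secreted MMPs, was at 9.94, 9.21 and 9.96 in BMP NCSC, 3.64, 4.59 and 3.84 in rNCSC, and 4.28, 4.57 and 4.78 in SCSC. No array of the other groups came within 4 log2 units of BMP NCSC (rNCSC difference -5.68, SE 0.29, limma adjusted p = 3.29e-07). Timp2, which inhibits Mmp2 and also takes part in its activation, was present in every group but higher in BMP NCSC. It was at 13.02, 12.96 and 12.79 there, at 9.69, 9.83 and 9.47 in rNCSC and at 9.81, 9.89 and 9.81 in SCSC. Its 5 tested probe sets were all called, with differences from -4.78 to -3.16.

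Timp3, which binds the matrix and also inhibits ADAM17 and aggrecan-cutting ADAMTS enzymes, was at 12.73, 12.70 and 11.95 in BMP NCSC and 7.32, 7.71 and 7.26 in rNCSC. In SCSC it was at 6.79, 8.31 and 6.76, so that replicate 2 stood above the others there. The difference for rNCSC was -5.03 (SE 0.41, limma adjusted p = 6.10e-06), and its 4 probe sets were called. Timp4 was abundant in all groups, at 11.70 ± 0.41 in rNCSC, 11.41 ± 0.19 in SCSC and 11.25 ± 0.43 in BMP NCSC (n = 3 each). Its arrays overlapped and it was not called (0.45, limma adjusted p = 0.14). A second probe set of Timp4 was called higher in rNCSC (1.26), so the probe sets of this gene disagreed.

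**Figure D4:**
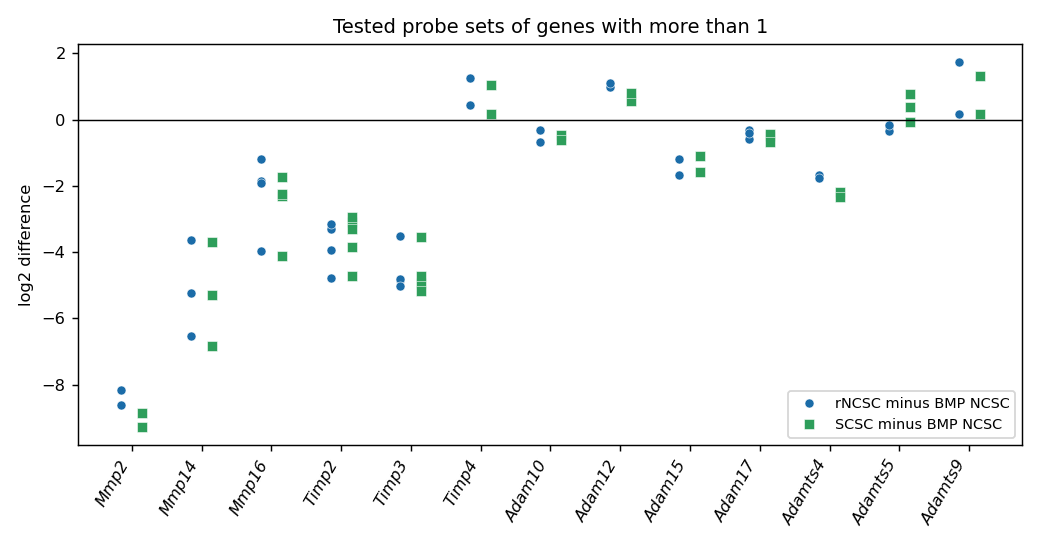
Log2 difference against BMP NCSC of every tested probe set, for the 13 members with more than 1, with rNCSC as circles and SCSC as squares. All probe sets of Mmp2, Mmp14, Mmp16, Timp2 and Timp3 lie below 0, and those of Mmp14 and Mmp16 spread over more than 2 log2 units.

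Among the ADAMs with protease activity, the most widely studied sheddases differed little. Adam10, which cuts Notch receptors and cadherins, was at 11.87 ± 0.22 in rNCSC against 12.19 ± 0.18 in BMP NCSC (n = 3 each, difference -0.32). Adam17, which releases TNF and ligands of the EGF receptor, was at 9.80 ± 0.24 and 10.13 ± 0.06 (n = 3 each, difference -0.32). Neither was called (limma adjusted p of 0.0608 and 0.0509). Adam15, an ADAM with an integrin-binding motif, was lower in rNCSC, at 6.00 ± 0.19 against 7.18 ± 0.11 (n = 3 each, difference -1.19). Adam9 was at 12.22 ± 0.069 in rNCSC against 11.23 ± 0.096 in BMP NCSC (n = 3 each). Its arrays did not overlap, and its difference of 0.99 (limma adjusted p = 8.27e-06) fell just short of the size limit.

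Adam19, a protease that can cut neuregulins and is known from the heart and peripheral nerve, had the largest ADAM difference in the other direction. It was at 7.73 ± 0.76 in rNCSC against 4.87 ± 0.36 in BMP NCSC (n = 3 each, difference 2.86, SE 0.35, limma adjusted p = 8.46e-05). Adam12, found in fusing muscle precursors and mesenchyme, was at 9.73, 9.60 and 10.78 in rNCSC and 8.61, 9.01 and 9.15 in BMP NCSC. Its call (1.11, limma adjusted p = 0.00722) rested on rNCSC replicate 3 and BMP NCSC replicate 1. Without the former the difference was 0.74, without the latter 0.96, and with replicate 3 of both DRG groups left out 0.85, each under the size limit.

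Adam11, Adam22 and Adam23 encode neural ADAMs without protease activity that bind LGI proteins. Adam23 was at 7.93, 7.44 and 5.52 in BMP NCSC and between 3.02 and 3.34 in the other groups, with replicate 3 lowest. The difference for rNCSC was -3.74 (SE 0.52, limma adjusted p = 1.72e-04). Its other 2 probe sets did not pass the filter, so this call rests on 1 probe set, and with the mean of its probe sets the gene was not tested. Lgi4, whose product is needed for Schwann cell myelination and binds ADAM22, was at 3.08 ± 0.053 in rNCSC against 7.25 ± 0.19 in BMP NCSC (n = 3 each). It was the 1 of 2 tested LGI genes that was called, but it reached 5 in BMP NCSC alone, which fixed its direction. Adam22 was at 6.00 ± 0.67 in rNCSC against 5.02 ± 0.058 in BMP NCSC (n = 3 each) and was not called at 0.99. Adam11 stayed below 4. The remaining 16 ADAM genes, most of them known from testis or epididymis, and Adam8, Adam28 and Adam33 did not reach 5 on any array.

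**Figure D5:**
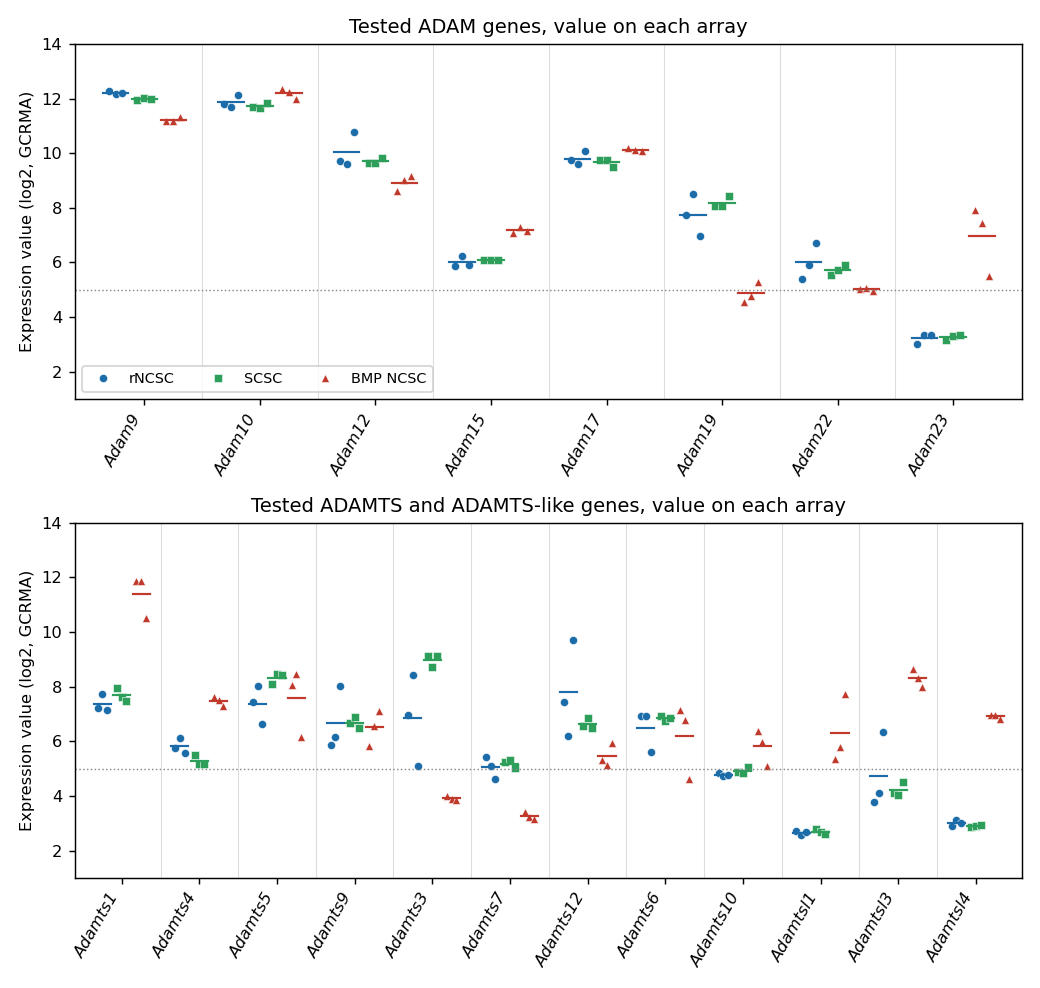
Log2 GCRMA value on each array for the 8 tested ADAM genes (top) and the 12 tested ADAMTS and ADAMTS-like genes (bottom), 3 points per group, with group means as bars and the filter level of 5 dotted. All BMP NCSC arrays lie above all others for Adam15, Adam23, Adamts1, Adamts4, Adamts10 and the 3 ADAMTS-like genes, and below all others for Adam9, Adam12, Adam19, Adam22, Adamts3, Adamts7 and Adamts12. For Adam17 they also lie above, but barely, with BMP NCSC replicate 3 and rNCSC replicate 3 both at 10.07 when rounded.

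The ADAMTS genes did not move as a block, with 3 of 9 tested lower in rNCSC, 3 higher and 3 not called. Among the enzymes that cut proteoglycans, Adamts1 was at 11.88, 11.87 and 10.50 in BMP NCSC, 7.23, 7.74 and 7.14 in rNCSC and 7.94, 7.62 and 7.49 in SCSC. All BMP NCSC arrays were higher than all others, although replicate 3 was the lowest of them (rNCSC difference -4.05, SE 0.36, limma adjusted p = 1.06e-05). Adamts4, an aggrecanase, was at 5.82 ± 0.28 in rNCSC against 7.48 ± 0.17 in BMP NCSC (n = 3 each, difference -1.66), and both its tested probe sets were called. Adamts5, the other main aggrecanase and the neighbour of Adamts1 on chromosome 16, was at 7.43, 8.04 and 6.63 in rNCSC and 8.06, 8.47 and 6.17 in BMP NCSC. Its arrays overlapped (-0.20, limma adjusted p = 0.757). Adamts9 was at 6.68 ± 1.2 and 6.51 ± 0.65 (n = 3 each) and was not called, but its second tested probe set was higher in rNCSC (1.73).

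The lecticans, large proteoglycans cut by these enzymes, were not lower as a group: 3 of 4 were higher in rNCSC and 1 lower. Of all genes tested, 21.3% were called higher and 22.6% lower. Acan, the cartilage lectican, was at 2.98 ± 0.15 in rNCSC against 12.20 ± 0.42 in BMP NCSC, while Ncan, a lectican of the nervous system, was at 11.92 ± 0.17 and 5.08 ± 0.89 (n = 3 each). Bcan was higher too (1.16), as was Vcan (2.08, limma adjusted p = 0.0228), whose arrays overlapped. Acan reached the filter level of 5 in BMP NCSC alone, which fixed its direction.

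Adamts3, a procollagen N-propeptidase that also activates VEGFC, was high in SCSC, variable in rNCSC and low in BMP NCSC. It was at 6.97, 8.44 and 5.10 in rNCSC, 9.12, 8.73 and 9.12 in SCSC and 4.01, 3.88 and 3.85 in BMP NCSC. No array of 1 group fell within the range of another (rNCSC against BMP NCSC 2.92, SE 0.68, limma adjusted p = 0.00376). Adamts7, known to cut the cartilage protein COMP, was at 5.05 ± 0.42 in rNCSC against 3.26 ± 0.13 in BMP NCSC (n = 3 each, difference 1.79). The related Adamts12 was at 7.45, 6.19 and 9.71 in rNCSC and 5.30, 5.12 and 5.92 in BMP NCSC. Its difference of 2.34 (limma adjusted p = 0.0174) was 1.38 without rNCSC replicate 3, and it was not called without BMP NCSC replicate 2 (limma adjusted p = 0.0532). Adamts10, a protein of fibrillin microfibrils, was called lower at -1.03 and fell under the size limit without BMP NCSC replicate 1 (-0.75) or 2 (-0.96) and with arrays centred on their medians (-0.99). Adamts6 overlapped between the groups (0.31).

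All 3 tested ADAMTS-like genes were lower in rNCSC, although Adamtsl1 and Adamtsl4 passed the filter through BMP NCSC alone, which fixed their direction. Adamtsl4, whose product promotes fibrillin microfibrils, was at 6.96, 6.98 and 6.83 in BMP NCSC and between 2.85 and 3.11 on the other 6 arrays, with a difference of -3.92 (SE 0.088, limma adjusted p = 2.85e-09). Adamtsl1 was at 5.36, 5.80 and 7.73 in BMP NCSC, highest on replicate 3, and at most 2.78 elsewhere (-3.64). With the mean of its probe sets it was not tested. Adamtsl3 was at 8.65, 8.30 and 7.98 in BMP NCSC, 3.77, 4.12 and 6.34 in rNCSC and 4.10, 4.05 and 4.52 in SCSC (rNCSC difference -3.57). Here rNCSC replicate 3 was the high array. Thsd4, a relative of this family outside the symbol rule, was at 2.65 ± 0.022 in rNCSC against 7.11 ± 0.63 in BMP NCSC (n = 3 each). It too reached 5 in BMP NCSC alone.

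The high values of Mmp2, Adamtsl3, Adamts9, Adamts12 and Adam12 on rNCSC replicate 3 came with others on that array. The peptidase gene Mme was at 9.63 on it and at 1.82 and 2.12 on replicates 1 and 2. Pcolce, a procollagen processing enhancer, was at 7.88 against 5.32 and 4.07, and S100b, a glial gene high in BMP NCSC, at 7.95 against 5.02 and 4.69. The other crest and Schwann cell markers were not higher there as S100b was, with Sox10 at 4.24, 3.95 and 4.24 and Erbb3 at 2.94, 3.34 and 2.97 on replicates 1, 2 and 3. Among cartilage markers, Col9a1 was at 5.51 on replicate 3 against 4.27 and 3.95, and Col11a1 at 8.51 against 7.93 and 7.63, while Col2a1 was at 3.23, 3.07 and 3.23. The fibroblast gene Col3a1 was at 2.96 against 2.78 and 2.59. Over the 7 fibroblast and mesenchyme markers, the array means ranged from 2.87 to 3.25 in rNCSC, 2.79 to 3.23 in SCSC and 7.38 to 8.59 in BMP NCSC. Over the 9 cartilage markers they were 3.57 to 3.95, 3.50 to 3.62 and 9.16 to 9.43. Replicate 3 had the highest rNCSC mean of both lists. It also had that of the 5 crest and Schwann cell markers (4.31 against 3.74 and 3.71), but through S100b. Ngfr was at 3.46, 3.68 and 3.45 and Foxd3 at 3.06, 2.90 and 2.95 on replicates 1, 2 and 3. The 7 microglial markers, whose cells can make Mmp9 and Mmp12, had array means of 2.94 to 3.12 in all groups. On BMP NCSC replicate 3, A2m, a general protease inhibitor, was at 9.49 against 6.62 and 6.78. The part of these cells or genes in the members' values was not tested.

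Other genes that switch these proteases on or off were followed as well. Of 10 tested activators and inhibitors other than TIMPs, 6 were lower in rNCSC and 1 higher. Of all genes tested, 22.6% were called lower and 21.3% higher. Among the genes lower, Serpinb2 reached 5 in BMP NCSC alone, which fixed its direction. A2m was called only narrowly (-2.03, limma adjusted p = 0.0499). Reck, a membrane-anchored inhibitor of Mmp2, Mmp9 and Mmp14, was at 6.31, 6.78 and 6.72 in rNCSC and 12.23, 12.46 and 12.42 in BMP NCSC, and the convertase gene Pcsk6 at 6.12 ± 0.69 and 11.32 ± 0.34 (n = 3 each). Plat, the tissue plasminogen activator, went the other way, at 12.11 ± 0.31 and 6.91 ± 0.51 (n = 3 each). Furin itself differed by -2.03 (SE 0.12, limma adjusted p = 9.31e-07). Of 7 tested partners of ADAM10 and ADAM17, 2 were lower and 2 higher, where 22.6% and 21.3% of all genes tested were. Tspan17 (-4.77) and Rhbdf1 (-1.98), a trafficking partner of ADAM17, were lower, whereas Tspan33 (1.41) and Tspan5 (1.37) were higher. The filter fixed the direction of Tspan17, which reached 5 in BMP NCSC alone. Likewise Tspan33 and Tspan5 reached 5 only in rNCSC and SCSC. In the astacin list, Pcolce (-6.76) and Pcolce2 (-5.89) were lower, and the procollagen C-proteinase gene Bmp1 was not called (0.88). Of 4 other metalloprotease and ADAMTS relatives tested, Mme (-8.53) and Thsd4 (-4.46) were lower and the endothelin-converting enzyme genes Ece1 and Ece2 were not called.

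Spinal cord spheres were then set against the same BMP NCSC arrays, a comparison in which tissue and BMP4 differ together. Of the 30 tested members 15 were lower in SCSC and 4 higher, where 22.9% and 24% of all genes tested were called. The filter shaped these counts too. Of the members lower in SCSC, Adam23, Adamtsl1, Adamtsl4, Mmp3, Mmp11, Mmp14 and Timp1 reached 5 in BMP NCSC alone. Mmp2 and Adamtsl3 reached it on no SCSC array. Of the members higher in SCSC, Adamts3, Adamts7 and Mmp17 reached it on no BMP NCSC array. The direction of all these calls was thereby fixed. The arrays did not overlap for 26 (86.7%), against 83.6% of all tested genes. With no filter 16 of the 70 members (22.9%) were lower and 5 (7.14%) higher, against 14.5% and 14.2% of all genes. As the BMP NCSC arrays are shared, these differences are given beside those above and not as independent evidence. For SCSC and rNCSC in turn, the difference from BMP NCSC was -9.27 and -8.61 for Mmp2, -6.83 and -6.52 for Mmp14, -6.86 and -6.96 for Mmp3, and -5.16 and -5.68 for Timp1. Among the members higher than in BMP NCSC it was 5.07 and 2.92 for Adamts3, 3.32 and 2.86 for Adam19, 1.92 and 1.79 for Adamts7, and 1.30 and 1.08 for Mmp17. Adam12 (0.79), Adamts12 (1.2, limma adjusted p = 0.165) and Adamts10 (-0.87) were not called for SCSC. Adamts12 was called without rNCSC replicate 3, which enters the shared variance (limma adjusted p = 0.0109), and Adamts10 without BMP NCSC replicate 3 (-1.23). Adamts20, a proteoglycan-cutting enzyme known from melanoblast development, did not pass the filter. It was at 5.41, 5.13 and 4.77 in SCSC, 3.47, 4.47 and 3.74 in rNCSC and 3.28, 3.36 and 3.41 in BMP NCSC, and with no filter it was called higher in SCSC than in BMP NCSC (1.76).

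Between rNCSC and SCSC, the spheres of different tissue in the same medium, limma called 0 of the 30 tested members in either direction, where 0% and 0.00969% of all tested genes were called higher and lower. At an unadjusted p below 0.05 there were 4 members, Adam9, Adamts3, Adamts4 and Mmp17, against 13.7% of all genes, and the lowest adjusted p was 0.244. The arrays did not overlap for 6 members (20%), against 20.7% of all genes. The largest difference was that of Adamts3 (-2.15, SE 0.68), which was called without rNCSC replicate 2 (-2.95, limma adjusted p = 0.0408) and was -1.28 without rNCSC replicate 3. Adamts4 averaged 5.82 ± 0.28 in rNCSC against 5.29 ± 0.19 in SCSC, and Adam9 at 12.22 ± 0.069 and 11.98 ± 0.04 (n = 3 each), both with every rNCSC array above every SCSC array. These misses do not show equal levels, because the spread in rNCSC was large for several members, such as Adamts12 (SD 1.8) and Mmp2 (SD 1.5).

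The 40 members that were not tested comprised 20 ADAM, 12 MMP, 6 ADAMTS and 2 ADAMTS-like genes. Of these, 37 stayed under 5 on all 9 arrays and 29 under 4. The exceptions were Mmp13, Mmp19 and Adamts20, described above. A low value of this kind can mean little transcript or a probe set that detects it poorly, which these arrays do not separate.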

How the data were processed

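RNA of 9 neurosphere samples was hybridised to Affymetrix mouse genome arrays as biotinylated cRNA, per the labels' protocols. The authors deposited log2 values, which per the submitters' processing notes come from GCRMA, its version not given in the sources used here. This method corrects background by probe sequence and draws unexpressed transcripts to low values, so differences from a mean under 4 have an uncertain size. Array medians were 3.99 to 4.03, and the number of arrays limits the precision.

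Groups and replicate numbers came from the sample titles. Of 45101 probe sets, 34958 had 1 gene symbol, 932 had several (5 of them naming a member) and were left out, and 9211 were unlisted. All 70 members' gene identifiers were found in the RefSeq table of GRCm38.p6, used for names, chromosomes, neighbours and promoter sequences; the values carry no coordinates. limma 3.58.1 in R 4.3.3 fitted the 3 group means over 9 arrays for 10320 genes, with moderated variances (2.39 prior degrees of freedom); tests were two-sided and p-values were adjusted by Benjamini-Hochberg over all genes tested. A difference is the value of the group named first less that of the other.

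Members, gene lists and settings were chosen with earlier results of these data known. The 12 called members with the largest difference between rNCSC and BMP NCSC were given array by array, other called and tested members by group means, and up to 2 called genes each way of related lists by value. Array values of further genes, and further genes of those lists, were given after they were seen. For rNCSC against BMP NCSC, 10 simulations of the 10320 genes were made with a change planted in 200 genes. Planted differences of 1 were detected in 72.8% of cases and those of 2 in 94.1%. False detections made up 5.2%. In the measured data far more genes were called (21.3% higher, 22.6% lower), and a difference of 1 lies at the size limit of a call. The simulated rates are therefore not error rates of the calls made here. Alternatives were the filter, the value per gene, the arrays fitted, a replicate block, scaling, variance model, array weights, thresholds and each array left out.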

Additional observations from a re-analysis of the deposited data

How the results depend on the processing

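The counts of members called were recomputed under 22 alternatives, 1 of them chosen after seeing the data (leaving out replicate 3 of both DRG groups). No called difference changed sign where it was tested. Of 41 calls over the comparisons, 21 were made under every alternative, and 26 under all those that kept the thresholds. At the same thresholds, 3 calls were lost although the gene was tested, those of Adam12, Adamts10 and Adamts12 in rNCSC against BMP NCSC, given with the results. For 14 calls the gene was not tested under some alternative. In both comparisons with BMP NCSC, a filter level of 7 left out Adam23, Adamts7, Adamtsl1, Adamtsl4, Mmp11 and Mmp17, and the mean of probe sets left out Adam23 and Adamtsl1. For rNCSC both also left out Adamts10 and Adamts12. Members higher in rNCSC than in BMP NCSC numbered 6, and 3 with a filter level of 7 or a size limit of 2. Members higher in SCSC than in BMP NCSC numbered 4, and 2 under those settings, which test fewer genes or ask for more, and 7 with no size limit. Leaving out each array in turn gave 5 to 8 members higher and 15 to 16 lower in rNCSC than in BMP NCSC, 4 to 5 higher and 15 to 16 lower in SCSC than in BMP NCSC, and 0 to 1 lower in rNCSC than in SCSC. Without replicate 3 of both DRG groups the counts higher and lower were 6 and 16, 5 and 16, and 0 and 0. With the replicate block the counts stayed at 6 and 16, 4 and 15, and 0 and 0, and no call changed. Arrays with the same number deviated together weakly, with correlations from 0.04 to 0.30, all of them positive. The best match was the array of the same number in every case except replicate 1 of SCSC against BMP NCSC. Whether the numbers mark a shared batch or culture is not stated, and the main fit did not pair the samples.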
